A study of Mus musculus with 20 samples.

Results

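The 10 genes described here encode the enzymes and the chaperone that turn newly made collagen chains into crosslinked fibres. They were chosen by symbol for that role, and are 10 of the 47069 genes in the count table, of which 27671 had a count above 0 in any mouse. The 5 lysyl oxidases (Lox and Loxl1 to Loxl4) oxidize lysines of secreted collagen and elastin, the step that starts covalent crosslinking. The 3 lysyl hydroxylases (Plod1 to Plod3) hydroxylate lysines inside the cell, P4ha1 is a catalytic subunit of prolyl 4-hydroxylase, whose product stabilizes the triple helix, and Serpinh1 encodes HSP47, a chaperone of the endoplasmic reticulum that binds procollagen. In scarring kidneys, fibrillar collagen is laid down between the tubules, mostly by fibroblasts and myofibroblasts, and its crosslinks make the matrix stiffer and harder to degrade.

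Kidney RNA was sequenced from 20 male F1 hybrid mice (129SJ x C57Bl/6J) killed at 15 weeks of age, 1 library per mouse. The WT group held 5 untreated wild-type mice. The other 15 mice were Col4a3-/-, a model of Alport syndrome in which a chain of the type IV collagen of the glomerular basement membrane is knocked out in the germline, and from 5 weeks of age 6 received subcutaneous PBS once a week (Veh), 6 received weekly subcutaneous Lademirsen at 50 mg/kg, an antisense oligonucleotide that blocks miR-21 (Anti-miR-21), and 3 drank ramipril, an inhibitor of angiotensin-converting enzyme, at 11 mg/L (ACEi). By the study's methods, mice given ramipril also had the PBS injections, whereas WT mice had none, so genotype and injection cannot be told apart between Veh and WT. The deposited library table gives the ramipril dose on a body-weight basis, not as a concentration.

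Totals on genes were 28474301 to 29479629 estimated counts per mouse, so depth hardly differed, and all 10 genes passed the filter on low counts. The lowest estimated count of any of them in any mouse was 34.3, for Loxl3 in WT mouse A18. Col4a3 itself had 194 to 237 CPM (counts scaled to library size) in WT and 27.9 to 74.8 in the 15 Col4a3-/- mice, with no overlap, and the counts do not say which exons the remaining reads come from. The extraction protocol in the labels names adipose tissue while the tissue label says kidney. Summed CPM of 5 proximal tubule markers were 11700 to 15000 in WT, against 0.656 to 6.5 for 4 adipocyte markers, which reached 113 in Veh mouse A4 and 92.5 in Anti-miR-21 mouse A12. Libraries were spread over 2 flow cells, and each group had mice on both, but unevenly. Flow cell A held 3 WT, 4 Veh, 5 Anti-miR-21 and 1 ACEi library. Flow cell B held 2 WT, 2 Veh, 1 Anti-miR-21 and 2 ACEi libraries. TMM scaling factors followed the groups, with values of 0.77 to 0.85 for WT libraries and of 1.12 to 1.26 for Veh libraries. With library totals alone the median log2 difference of all genes between Veh and WT was 0.65, against 0.07 with the TMM scaling used below, so changes are relative to that scaling.

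The sequences below are shown because the drug is an inhibitor of miR-21 and because Serpinh1 and P4ha1 moved in opposite directions under the TMM scaling. The mature mouse miR-21a-5p (RefSeq, GRCm38.p6, chr11:86584120-86584141, minus strand) follows with its seed, bases 2 to 8, in capitals. Beneath it is the stretch of the P4ha1 3′ untranslated region (GENCODE M21, GRCm38, chr10:59372098-59372126, plus strand) in which capitals mark the 7 bases complementary to that seed, and the RefSeq promoters of Serpinh1 (GRCm38.p6, chr7:99353190-99353489, minus strand) and P4ha1 (chr10:59323046-59323345, plus strand), from 250 bases before to 50 bases after the start of transcription, with capitals where ACGTG, the core of the hypoxia response element, matched on either strand.
mmu-miR-21a-5p: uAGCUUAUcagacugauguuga
P4ha1 site: gctcccttgggATAAGCTtcggggaattt
Serpinh1 promoter: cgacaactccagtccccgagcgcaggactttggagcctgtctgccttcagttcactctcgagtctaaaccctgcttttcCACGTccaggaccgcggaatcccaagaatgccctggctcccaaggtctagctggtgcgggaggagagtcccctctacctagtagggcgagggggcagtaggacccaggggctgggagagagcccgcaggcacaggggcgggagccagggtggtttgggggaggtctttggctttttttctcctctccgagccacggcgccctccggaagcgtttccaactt
P4ha1 promoter: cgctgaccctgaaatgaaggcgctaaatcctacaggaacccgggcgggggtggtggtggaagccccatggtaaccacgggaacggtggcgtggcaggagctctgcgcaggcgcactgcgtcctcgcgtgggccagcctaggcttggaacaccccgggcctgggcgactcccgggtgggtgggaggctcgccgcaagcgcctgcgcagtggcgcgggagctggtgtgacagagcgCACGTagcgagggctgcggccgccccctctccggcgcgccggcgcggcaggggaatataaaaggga

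P4ha1 was the only one of the 10 genes with a seed match in an annotated 3′ untranslated region, at base 1035 of 2 of its 3 transcripts. Of 21069 protein-coding genes with such a region, 8.13% had a match in at least 1 transcript, so 1 of 10 is near the background share. The match is to letters only and shows no binding. Of the 10 genes, 5 had an entry in the RefSeq promoter table (Loxl4, Plod1, Plod3, P4ha1 and Serpinh1). ACGTG was found in those of Plod3 (first base at position -54), P4ha1 (-16) and Serpinh1 (-171), and in 19.7% of 27025 promoters. GAANNTTC, the heat shock element core, was found in that of Plod1 at position 43 and in 7.95% of promoters, and TGANTCA, an AP-1 site, in none of the 5 and in 7.93% of promoters. Both strands were read, and no match says only that the letters are not in this window.

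The comparison of Veh with WT addresses how these transcripts differ in diseased kidneys. Of the 10 genes, 8 rose, 1 fell (P4ha1) and 1 did not pass the test (Plod2), at an adjusted p under 0.05 in edgeR's quasi-likelihood test over 17622 genes. Across all genes tested 39.0% were called higher and 34.0% lower. The median log2 fold change of the 10 genes was 1.25, against 0.07 for all genes. In 7 genes the Veh and WT ranges did not overlap, as in 54.9% of all genes. The 4 largest changes were those of Lox, Loxl2, Loxl3 and Loxl1, whereas the lysyl hydroxylases changed by less than 1 log2 unit.

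Lox (chr18:52516067-52529867, minus strand) encodes the founding lysyl oxidase of the family. In WT mice it was measured at 2.98, 2.83, 2.66, 4.01 and 3.44 CPM. Values in Veh ran from 61.5 through a median of 67.0 to 97.8 CPM, in Anti-miR-21 from 9.58 through 19.4 to 30.3 CPM, and the 3 ACEi mice had 29.0, 27.1 and 30.6 CPM. Every Veh mouse lay above every treated mouse, and every treated mouse above every WT mouse. Lox was 22.3-fold higher in Veh than in WT (log2 fold change 4.48 ± 0.26 SE, adjusted p = 1.24e-11). It was 3.6-fold lower in Anti-miR-21 than in Veh (log2 fold change -1.85 ± 0.20, adjusted p = 2.86e-07) and 2.46-fold lower in ACEi (-1.30 ± 0.25, adjusted p = 0.000505). Lox thus had the largest change of the 10 genes in each of these comparisons. An antisense gene, AC161119.1, overlaps exons of Lox and was not analysed here.

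Loxl2 (chr14:69609068-69695834, plus strand), a family member with scavenger receptor domains, was measured at 6.37, 10.5, 12.1, 6.83 and 3.78 CPM in WT. Veh mice ranged from 64.0 through 78.1 to 85.5 CPM, Anti-miR-21 mice from 19.7 through 31.1 to 37.6 CPM, and ACEi mice had 45.2, 47.3 and 51.1 CPM. No 2 of the 4 groups overlapped, although the test did not call Anti-miR-21 and ACEi apart (adjusted p = 0.182). Loxl2 was 9.74-fold higher in Veh than in WT (log2 fold change 3.28 ± 0.23, adjusted p = 9.8e-11). It fell with Anti-miR-21 (-1.35 ± 0.19, adjusted p = 5.19e-06) and with ACEi (-0.69 ± 0.23, adjusted p = 0.0236). An antisense gene, Gm27177, overlaps Loxl2 with up to 485 counts, and the strand setting of the counting is not given in the sources used here, so their reads may be mixed.

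Loxl3 (chr6:83034173-83052562, plus strand) had 2.32, 4.72, 4.65, 5.23 and 1.43 CPM in WT, 18.6 through 22.8 to 26.3 CPM in Veh, 8.43 through 11.0 to 13.1 CPM in Anti-miR-21, and 13.3, 15.2 and 14 CPM in ACEi. The groups again kept apart, in the order WT, Anti-miR-21, ACEi and Veh. The test did not call Anti-miR-21 and ACEi apart (adjusted p = 0.489). Loxl3 rose 6.16-fold in Veh (log2 fold change 2.62 ± 0.23, adjusted p = 2.52e-09), and fell with Anti-miR-21 (-1.05 ± 0.20, adjusted p = 0.000124) and ACEi (-0.68 ± 0.24, adjusted p = 0.0317). Exons of Loxl3 overlap those of Htra2 on the other strand, with up to 1719 counts for Htra2, so here too reads of both genes may be mixed.

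Loxl1 (chr9:58287738-58313186, minus strand), which is known for elastic fibre assembly, was the most abundant lysyl oxidase in WT, at 20.5, 30.6, 24.8, 23.4 and 10.4 CPM. It reached 101 through 106.1 to 121 CPM in Veh. In Anti-miR-21 it ran from 54.0 through 64.7 to 76.8 CPM, and ACEi mice had 80.5, 96.5 and 91.6 CPM. All groups were apart, although the ACEi mice lay close below Veh. The test did not call Anti-miR-21 and ACEi apart (adjusted p = 0.241). Loxl1 rose 4.92-fold in Veh (log2 fold change 2.30 ± 0.17, adjusted p = 3.64e-10) and fell with Anti-miR-21 (-0.75 ± 0.15, adjusted p = 0.000328). With ACEi the log2 difference was -0.27 (95% CI -0.67 to 0.13, adjusted p = 0.272), which did not pass the test. The fall was called when only ACEi and Veh mice were fitted (-0.28, adjusted p = 0.025), with library totals alone (-0.55, adjusted p = 0.0368) and on log2(FPKM + 1) in limma (-0.53, adjusted p = 0.0271). Under the other settings, among them FPKM at a pseudocount of 0.1, it was not called. The same held with any 1 mouse left out (adjusted p = 0.311 to 0.542 in edgeR).

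Loxl4 (chr19:42593982-42612813, minus strand) was the least abundant of the 10 genes in Veh. It had 2.09, 3.77, 1.61, 4.82 and 2.06 CPM in WT, 3.95 through 5.14 to 5.46 CPM in Veh, 2.06 through 3.43 to 4.83 CPM in Anti-miR-21 and 4.79, 4.51 and 4.09 CPM in ACEi. All 4 groups overlapped. The rise in Veh passed the test (log2 fold change 0.78 ± 0.24, adjusted p = 0.0059), but on the 4 libraries of flow cell B alone it did not (0.61, adjusted p = 0.214). The difference of -0.51 with Anti-miR-21 (95% CI -0.98 to -0.05) missed the threshold with an adjusted p of 0.0518, a call that depended on the setting. It passed with RLE size factors (adjusted p = 0.048), upper-quartile scaling (0.027), library totals alone (-0.85, 0.00345), a stricter count filter (0.0372), only these 2 groups (0.0185), DESeq2 (0.0315), FPKM in limma (0.000128 at a pseudocount of 1), and without Veh mouse A9 (0.0498) or Anti-miR-21 mouse A10 (0.0248).

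**Figure D1:**
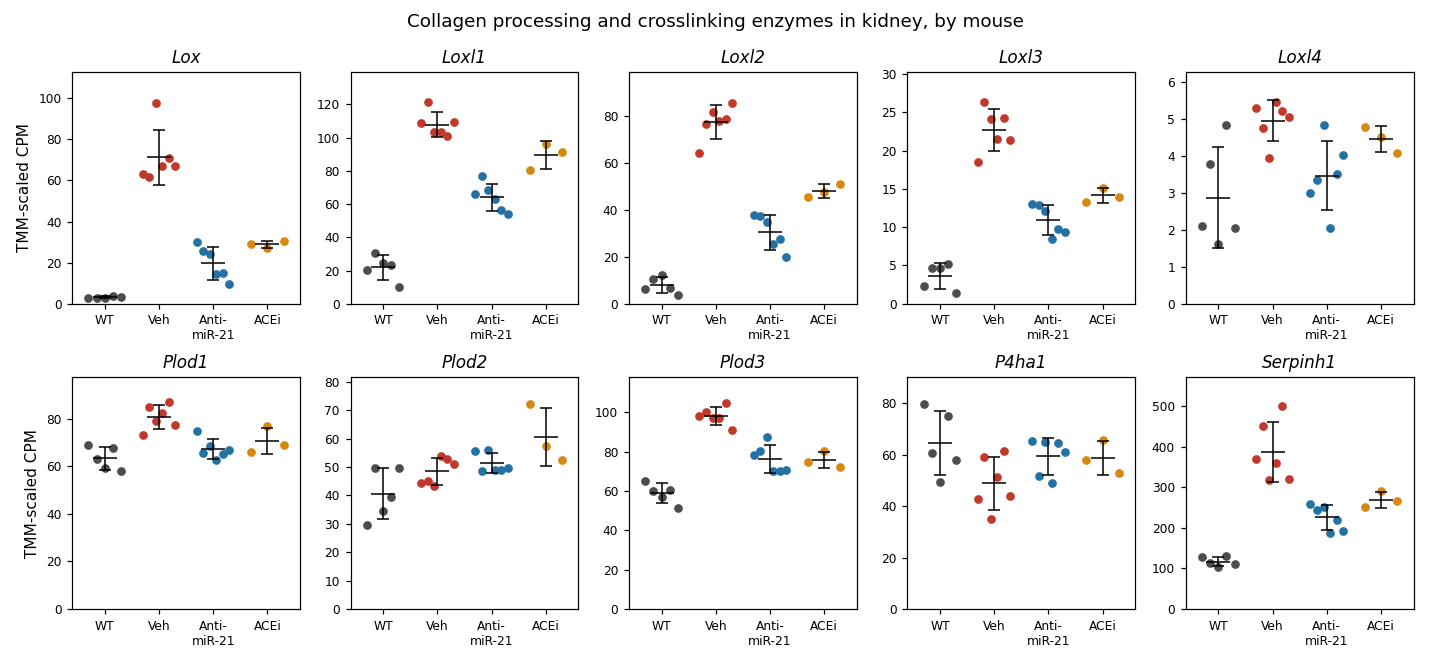
TMM-scaled CPM (y axes, from 0) of the 10 genes in each mouse, by group, with the mean and SD of 5 WT, 6 Veh, 6 Anti-miR-21 and 3 ACEi mice. Lox runs from 2.66 to 4.01 CPM in WT and from 61.5 to 97.8 CPM in Veh, whereas the ranges of P4ha1 and Plod2 overlap between Veh and WT.

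Because the lysyl oxidases rose by unequal amounts, the make-up of the family changed. Lengths differ between genes, so this was read from FPKM, the authors' values per kilobase of exon and library size. The summed FPKM of the 5 genes was 8.72 ± 2.87 (SD, n = 5) in WT, 87.2 ± 6.68 (n = 6) in Veh, 32.7 ± 7.93 (n = 6) in Anti-miR-21 and 48.3 ± 1.86 (n = 3) in ACEi. Loxl1 made up 61.8% ± 4.47 of that sum in WT and 46.3% ± 3.50 in Veh, and Lox 7.58% ± 3.72 in WT and 22.5% ± 3.39 in Veh. Loxl2 went from 14.2% ± 3.26 to 21.3% ± 1.54 and Loxl4 from 7.74% ± 3.09 to 2.16% ± 0.26, while Loxl3 had 8.66% ± 1.40 in WT and 7.75% ± 0.70 in Veh.

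These shares are ratios within a library and do not depend on the scaling between libraries. The measure was added after the values had been seen, and exact two-sided permutation tests over the mice were adjusted over 20 comparisons. Between Veh and WT the shares of Lox, Loxl1 and Loxl4 differed (each exact p = 0.00433, the smallest that the 462 divisions can give, adjusted 0.0144), and so did that of Loxl2 (exact p = 0.00866, adjusted 0.0247). The Loxl3 share did not pass (exact p = 0.208, adjusted 0.277). With Anti-miR-21 the Lox share was 12.8% ± 3.36 and the Loxl1 share 58.7% ± 4.43, and both differed from Veh (each exact p = 0.00216, adjusted 0.0144). So did the Loxl2 share, at 17.5% ± 1.49 (exact p = 0.00433, adjusted 0.0144), whereas Loxl3 and Loxl4 did not pass (adjusted 0.575 and 0.0563). In ACEi the Lox and Loxl1 shares were 13.6% ± 1.19 and 56.9% ± 2.0, where the smallest p that 84 divisions allow is 0.0238 and the adjusted p was 0.0529. Loxl2, Loxl3 and Loxl4 did not pass there either (adjusted 0.17, 0.387 and 0.119). The authors marked the FPKM entries of Lox, Loxl2 and Loxl3 as confounded with other genes.

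**Figure D2:**
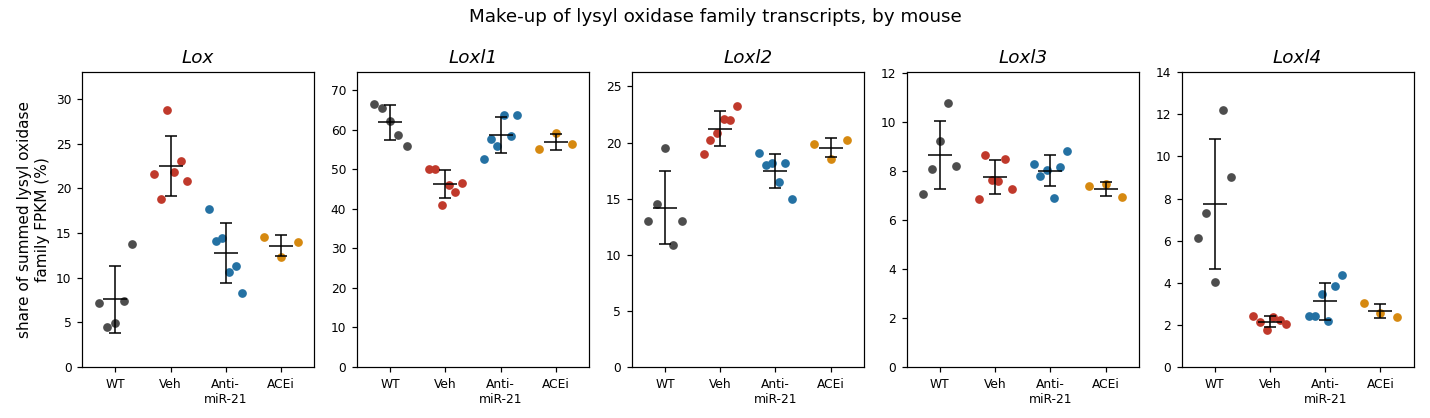
Share in percent (y axes, from 0) of each lysyl oxidase in the summed FPKM of the 5 family members, in each mouse by group, with mean and SD. The Lox share is 4.53 to 13.8% in WT and 18.8 to 28.8% in Veh, and the Loxl1 share 56.0 to 66.5% and 41.0 to 50.1%.

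The lysyl hydroxylases changed less, and not alike. Plod3 (chr5:136987019-136996648, plus strand), which can also add sugars to hydroxylysine, had 64.9, 60.3, 57.1, 60.5 and 51.2 CPM in WT, 90.9 through 97.8 to 105 CPM in Veh, 70.1 through 74.7 to 87.5 CPM in Anti-miR-21 and 74.6, 80.3 and 72.3 CPM in ACEi. Veh lay above all other groups, and both treated groups lay between Veh and WT and overlapped each other. Its log2 fold change was 0.74 ± 0.07 in Veh against WT (adjusted p = 6.07e-09), -0.36 ± 0.06 with Anti-miR-21 (adjusted p = 7.23e-05) and -0.37 ± 0.08 with ACEi (adjusted p = 0.00111). Plod3 shares exon sequence with Znhit1 on the other strand, which had up to 1340 counts.

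Plod1 (chr4:147909753-147936767, minus strand), which acts mainly on lysines of the triple helix, had 68.7, 63.1, 59.0, 67.7 and 57.8 CPM in WT, 73.1 through 80.5 to 87.1 CPM in Veh, 62.8 through 66.2 to 74.6 CPM in Anti-miR-21, and 66.0, 76.9 and 69.0 CPM in ACEi. WT and Veh were apart, whereas both treated groups overlapped WT as well as Veh. The changes were small: a log2 fold change of 0.35 ± 0.06 in Veh (adjusted p = 5.38e-05), -0.26 ± 0.06 with Anti-miR-21 (adjusted p = 0.000948) and -0.19 ± 0.07 with ACEi (adjusted p = 0.047). With flow cell as a term the ACEi call was lost (-0.19, adjusted p = 0.0624), as it was with only the 2 groups fitted (0.0679) and with no filter on low counts (0.119).

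Plod2 (chr9:92542223-92608428, plus strand) hydroxylates the lysines of collagen telopeptides, the positions from which the more stable crosslinks are made. It had 29.6, 49.8, 34.6, 39.5 and 49.6 CPM in WT, 43.4 through 48.1 to 53.8 CPM in Veh, 48.8 through 49.3 to 56.0 CPM in Anti-miR-21 and 72.1, 57.3 and 52.4 CPM in ACEi. Its WT range was wide and overlapped Veh and Anti-miR-21. The log2 difference between Veh and WT was 0.25 (95% CI 0.01 to 0.50, adjusted p = 0.0571), and it passed the test without WT mouse A6 (adjusted p = 0.0152), WT mouse A18 (0.0163) or Veh mouse A9 (0.0457). It also passed with flow cell as a term (0.27, adjusted p = 0.0271), upper-quartile scaling (0.36, adjusted p = 0.00867) and a stricter count filter (0.32, adjusted p = 0.0202). Against Veh it was 0.08 with Anti-miR-21 (95% CI -0.15 to 0.31, adjusted p = 0.531) and 0.32 with ACEi (95% CI 0.04 to 0.60, adjusted p = 0.0597), so no fall was seen with either drug under this scaling. The ACEi difference was called as a rise when only ACEi and Veh mice were fitted (adjusted p = 0.0364), and without Veh mouse A16 (0.0349), A19 (0.0419) or A20 (0.049) or ACEi mouse A23 (0.0375). With library totals alone the Anti-miR-21 difference was -0.25 (not called), and that between Veh and WT was 0.83 (adjusted p = 1.2e-05). On log2(FPKM + 1) in limma these were -0.24 (not called) and 0.79 (adjusted p = 1.04e-05).

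P4ha1 (chr10:59323296-59373304, plus strand) was the one gene that fell in Veh. It had 79.8, 60.8, 49.3, 75.2 and 58.2 CPM in WT, 35.1 through 47.7 to 61.5 CPM in Veh, 49.2 through 62.9 to 65.4 CPM in Anti-miR-21 and 58.0, 65.6 and 52.8 CPM in ACEi. Ranges of all groups overlapped. The log2 fold change in Veh was -0.40 ± 0.14 (adjusted p = 0.0142), and the call was lost without WT mouse A3 (adjusted p = 0.0583), with upper-quartile scaling (0.0623) and on flow cell A alone (0.145). With library totals alone the direction was the opposite and not called (0.18, adjusted p = 0.243). Its differences with Anti-miR-21 (0.28, 95% CI 0.00 to 0.56, adjusted p = 0.0768) and ACEi (0.26, 95% CI -0.07 to 0.60, adjusted p = 0.204) did not pass the test, although that with Anti-miR-21 passed without Veh mouse A4 (adjusted p = 0.0298), Veh mouse A19 (0.0214) or Anti-miR-21 mouse A12 (0.0475).

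Serpinh1 (chr7:99345376-99353239, minus strand) was the most abundant of the 10 genes per length in every group. It had 127, 113, 104, 131 and 109.8 CPM in WT, 317 through 364 to 499 CPM in Veh, 188 through 232 to 258 CPM in Anti-miR-21 and 252, 290 and 265 CPM in ACEi. WT was below and Veh above both treated groups, which overlapped each other. Serpinh1 rose 3.30-fold in Veh (log2 fold change 1.72 ± 0.12, adjusted p = 1.67e-10), and fell with Anti-miR-21 (-0.77 ± 0.11, adjusted p = 7.84e-06) and with ACEi (-0.52 ± 0.14, adjusted p = 0.00606). The mouse with the most Lox in Veh, A9, was the one with the least Serpinh1 and the least P4ha1 in that group.

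On the length-corrected FPKM scale the order of levels changed between groups. In WT, Serpinh1 (44.0 ± 5.24 FPKM, n = 5) was followed by Plod1 (15.9 ± 1.35), P4ha1 (15.0 ± 2.97) and Plod3 (14.6 ± 1.23), whose ranges overlapped from one to the next, then by Plod2 (9.17 ± 2.20) and Loxl1 (5.44 ± 1.93), with Loxl4 (0.67 ± 0.38) and Lox (0.59 ± 0.11), which overlapped, at the end. In Veh, Serpinh1 (183.6 to 292 FPKM, n = 6) was followed by Loxl1 (40.3 ± 3.32) and Plod3 (36.8 ± 2.52), which overlapped, and by Plod1 (30.7 ± 2.37). Lox was the fifth at 19.7 ± 4.07 FPKM, overlapping Loxl2 (18.5 ± 1.96), and was followed by Plod2 (16.3 ± 1.46) and P4ha1 (16.1 ± 3.42). FPKM is not TMM-scaled, and on it P4ha1 had nearly the same mean in WT (15.0 ± 2.97) and Veh.

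The 2 treated groups were each compared with the same 6 Veh mice. With Anti-miR-21, 7 of the 10 genes fell, none rose and 3 were not called (Loxl4, Plod2 and P4ha1), with a median log2 fold change of -0.63, against 30.5% of all genes called lower and 28.8% higher. In 6 of the 10 genes the Anti-miR-21 and Veh ranges did not overlap, against 36.4% of all genes. With ACEi, 6 genes fell (Lox, Loxl2, Loxl3, Plod1, Plod3 and Serpinh1), none rose and 4 were not called, with a median of -0.32, against 19.1% of all genes called lower and 21.0% higher. In 6 genes the ACEi and Veh ranges did not overlap, against 38.6% of all genes, among them Loxl1, which was not called.

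Several of the ACEi calls were lost when 1 mouse was left out. Loxl2 lost its call without any 1 of the ACEi mice (adjusted p = 0.0511 to 0.0859), while its log2 fold change stayed between -0.74 and -0.65. Loxl3 lost it likewise (-0.73 to -0.63), and also without Veh mouse A4, A9 or A19 (adjusted p = 0.0607 to 0.109). Plod1 lost it without any Veh mouse other than A1, or without ACEi mouse A11 or A23 (-0.18 to -0.14, adjusted p = 0.0782 to 0.236). Lox, Plod3 and Serpinh1 kept theirs in every such refit. Without ACEi mouse A11, 3 genes were called, and on flow cell B alone, with 2 mice a group, only Lox was.

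**Figure D3:**
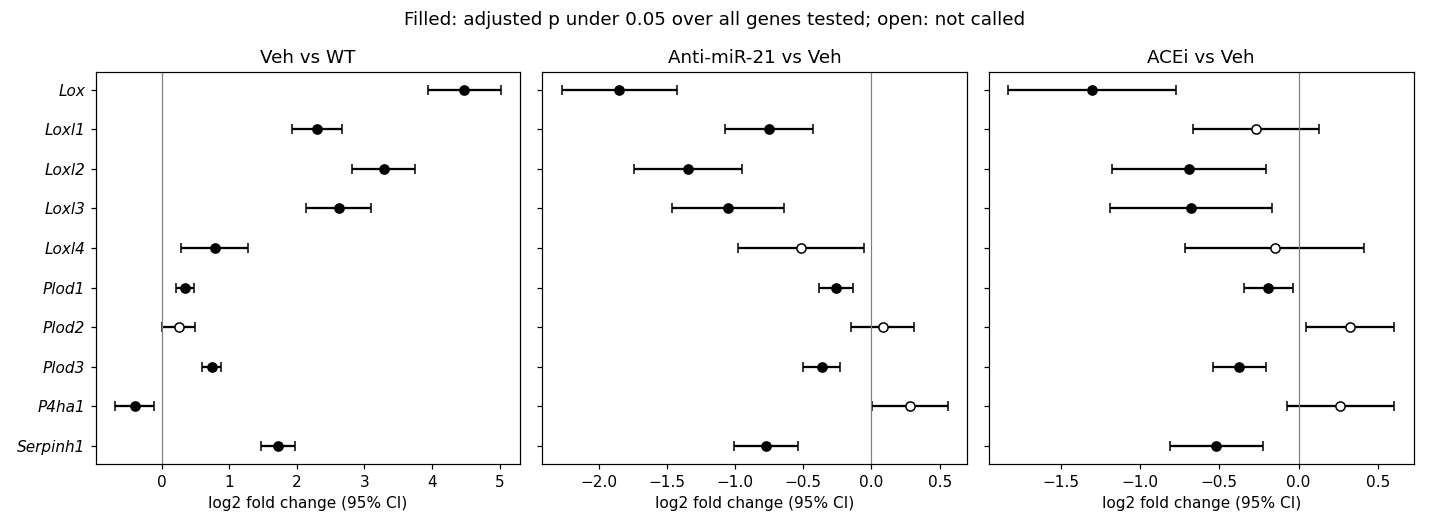
Log2 fold change (x axes, with 95% confidence interval) of the 10 genes in 3 comparisons, with the first-named group minus the second, filled where the adjusted p over all genes tested was under 0.05. Lox is farthest from 0 in each panel, at 4.48, -1.85 and -1.30, and the intervals of Loxl1, Loxl4 and P4ha1 span 0 with ACEi.

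Compared directly, Anti-miR-21 and ACEi mice did not differ in any of the 10 genes at the threshold in edgeR or DESeq2, while over all genes edgeR called 0.363% higher and 0.221% lower in Anti-miR-21. At an unadjusted p under 0.05, which 7.42% of all genes passed as lower and 7.12% as higher, 3 genes were lower in Anti-miR-21: Loxl2 (log2 difference -0.65, 95% CI -1.12 to -0.19, adjusted p = 0.182), Loxl1 (-0.48, 95% CI -0.87 to -0.09, adjusted p = 0.241) and Lox (-0.55, 95% CI -1.05 to -0.05, adjusted p = 0.3). Plod3 (0.01, 95% CI -0.16 to 0.18) and P4ha1 (0.02, 95% CI -0.32 to 0.36) were close to 0, with a sign that turned under library totals alone. The intervals therefore leave room for a difference of more than 1 log2 unit in Lox and Loxl2 and bound it tightly for Plod3. Ranges of the 2 groups did not overlap in 3 of the 10 genes (Loxl1, Loxl2 and Loxl3), and the share of all genes without overlap was not counted. Flow cell A held 5 of the 6 Anti-miR-21 libraries and 1 of the 3 ACEi libraries, so drug and flow cell partly coincided. With flow cell as a term none of the 10 genes was called either. The comparison could not show the 2 drugs to be alike.

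Neither treated group was back at the WT level in all 10 genes. Against WT, 7 of the 10 genes were higher in Anti-miR-21, and none lower, against 23.9% of all genes higher and 19.8% lower. In ACEi the same 7 were higher (Lox, Loxl1, Loxl2, Loxl3, Plod2, Plod3 and Serpinh1) and none lower, against 25.2% and 22.5%. Loxl4, Plod1 and P4ha1 were not called against WT in Anti-miR-21 (adjusted p = 0.384, 0.279 and 0.512) or in ACEi (0.0696, 0.0946 and 0.531). Lox was still 6.20-fold higher than WT in Anti-miR-21 (log2 fold change 2.63 ± 0.25, adjusted p = 7.38e-08) and 9.06-fold higher in ACEi (3.18 ± 0.28, adjusted p = 1.58e-08). Plod2, which was not called between Veh and WT in the main fit, passed against WT in both treated groups (0.34 ± 0.12, adjusted p = 0.0249, and 0.58 ± 0.14, adjusted p = 0.00198). The first of these calls was lost without WT mouse A3 (adjusted p = 0.0726), WT mouse A14 (0.0721) or Anti-miR-21 mouse A2 (0.0517).

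How far each gene had moved was described as a position on the log2 CPM scale, where the Veh mean is 0% and the WT mean 100%. It was 43.5% ± 14.2 (SD, n = 6) for Lox in Anti-miR-21 and 28.8% ± 1.99 (n = 3) in ACEi, 40.7% ± 11.0 and 20.3% ± 2.65 for Loxl2, 38.5% ± 9.70 and 24.3% ± 3.50 for Loxl3, and 31.9% ± 7.84 and 11.4% ± 5.66 for Loxl1. Serpinh1 was at 44.8% ± 11.7 and 29.4% ± 6.02, and Plod3 at 49.6% ± 17.8 and 50.4% ± 10.5. In Lox, Loxl1, Loxl2, Loxl3, Serpinh1 and Plod3, the Anti-miR-21 mice A12, A15 and A22 had lower CPM than A2, A8 and A10. Their positions were thus nearer to the WT mean. Of these 6 mice, 5 shared flow cell A, with A10 on flow cell B. On log2(FPKM + 1) the ACEi means were 38.9% for Lox, 28.6% for Loxl2, 36.3% for Loxl3 and 19.5% for Loxl1. With library totals alone they were 18.3% for Loxl1, 24.1% for Loxl2 and 28.1% for Loxl3. The Anti-miR-21 means also depended on the setting, and that of Loxl3 was 52% on log2(FPKM + 1). Over other scalings, FPKM and each mouse left out, they reached 54.7% for Lox, 49.7% for Loxl2 and 39% for Loxl1. Plod1 was at 74.6% ± 24.2 and 54.6% ± 32.3, P4ha1 at 73.5% ± 45.1 and 70.2% ± 38.9, and Loxl4 at 61.6% ± 46.2 and 16.2% ± 12.8. In Anti-miR-21 these were the widest spreads, and the 3 genes are not read further.

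**Figure D4:**
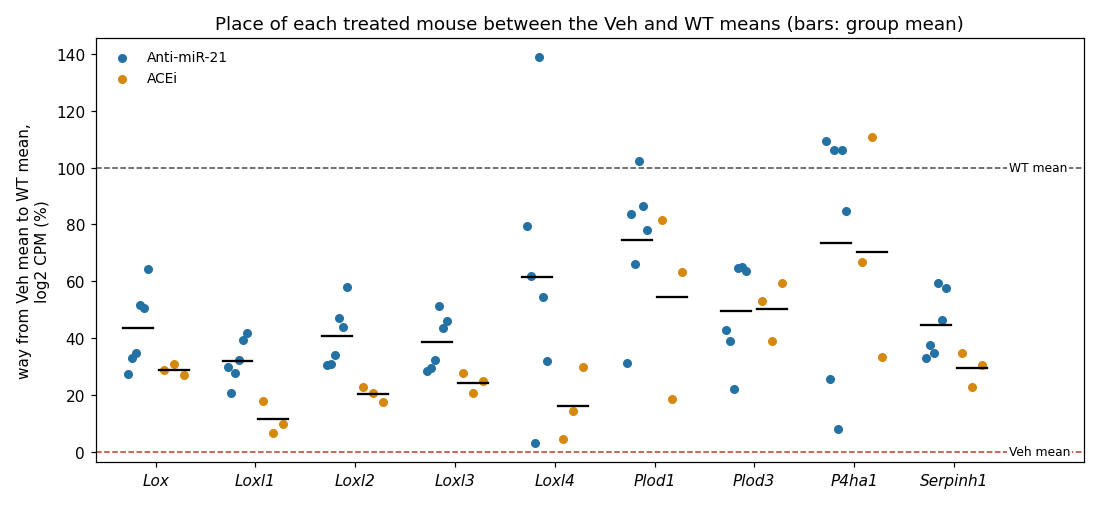
Position on the log2 CPM scale in percent (y axis, Veh mean at 0%, WT mean at 100%) for each Anti-miR-21 and ACEi mouse, for the 9 genes called between Veh and WT, with a bar at each group mean. For Loxl1, Loxl2 and Loxl3 each ACEi mouse is below the lowest Anti-miR-21 mouse, and for Plod3 the groups overlap. None of the 9 genes was called between these groups.

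Markers of other cell types also changed. In Veh against WT, 39.0% of all genes were called higher and 34.0% lower. All 5 fibroblast markers rose in Veh against WT (median log2 fold change 2.03), and their summed CPM was 80.2 to 189 in WT, 474 to 590 in Veh, 297 to 495 in Anti-miR-21 and 357 to 410 in ACEi. Smooth muscle markers, 4 of 5 of which rose, summed to 134 to 195 CPM in WT, 420 to 610 in Veh, at most 292 in Anti-miR-21 and 263 to 320 in ACEi. All 5 macrophage markers rose, from a sum of 137 to 150 CPM in WT to 770 to 943 in Veh. The 5 proximal tubule markers all fell, to a sum of 1290 to 3630 CPM in Veh, with 6390 to 10700 in Anti-miR-21 and 6650 to 8710 in ACEi. All 5 T cell and all 4 tubule injury markers also rose, as did 4 of 5 podocyte, 3 of 4 B and plasma cell, 3 of 4 adipocyte and 2 of 5 endothelial markers, of which 1 more fell. All 3 thick ascending limb, both distal tubule, 2 of 3 collecting duct and all 3 erythroid markers fell, and the 1 adrenal gland marker tested was not called. Against Veh, 3 of 5 fibroblast, 4 of 5 smooth muscle and all 5 macrophage markers were called lower in Anti-miR-21, against 30.5% of all genes. In ACEi 1, 5 and 5 of them were, against 19.1%. All 5 proximal tubule markers were called higher in each treated group, against 28.8% and 21.0% of all genes. In bulk kidney RNA, more cells of a type and more RNA per cell cannot be told apart, and the part of these markers in the changes above was not tested.

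The other collagen genes were read from lists of partners, of which 31 of 33 were tested. In Veh against WT, 21 rose, 5 fell and 5 were not called, with a median log2 fold change of 1.06, against 39.0% of all genes called higher and 34.0% lower. Of the substrates, all 6 rose, with a median of 3.54. Col3a1, the chain of type III collagen, went from a mean of 58.5 CPM in WT to 1414 in Veh (log2 fold change 4.59 ± 0.30, adjusted p = 4.92e-11), and Eln, elastin, from 13.5 to 96.0 CPM (2.83 ± 0.13, adjusted p = 1.31e-12). Of the procollagen proteinases and enhancers 4 of 6 rose, with Adamts2, which removes the amino-terminal propeptide, up from 8.47 to 75.3 CPM (3.15 ± 0.21, adjusted p = 6.01e-11) and its relative Adamts14 at 2.22 and 2.54 CPM (adjusted p = 0.318).

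Partners of the hydroxylases were called in both directions, in shares to be read against the same background. Fkbp10, a chaperone that assists lysyl hydroxylation in telopeptides, rose from 7.23 to 51.9 CPM (log2 fold change 2.84 ± 0.16, adjusted p = 1.18e-11). Plod2 itself narrowly missed the threshold in the main fit (adjusted p = 0.0571) and passed it in several other settings given above. The glycosyltransferase Colgalt2 had 5.05 and 4.86 CPM (adjusted p = 0.862). In the prolyl 3-hydroxylase complex 3 of 6 rose and 1 fell, with P3h3 at 15.0 CPM in WT and 57.2 in Veh (1.93 ± 0.15, adjusted p = 6.1e-10) and P3h2 at 123 and 68.2 (-0.85 ± 0.11, adjusted p = 6.45e-07). Of 3 prolyl 4-hydroxylase partners, 2 rose and 1 fell. P4hb, the protein disulfide isomerase that forms the other subunit of prolyl 4-hydroxylase, fell from 953 to 545 CPM (-0.81 ± 0.08, adjusted p = 1.07e-08). The minor subunit P4ha3 rose from 0.24 to 0.95 CPM (1.99 ± 0.44, adjusted p = 0.000445).

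Of 4 procollagen export genes, 3 fell in Veh and 1 rose, against 34.0% of all genes called lower and 39.0% higher. Other scalings were not run for the partner genes, so these falls are relative to the TMM scaling. The median log2 difference of all genes between Veh and WT was 0.07 with TMM and 0.65 with library totals alone. Mia2, which encodes a cargo receptor of endoplasmic reticulum exit sites, fell from 287 to 120.3 CPM (log2 fold change -1.25 ± 0.09, adjusted p = 2.88e-10), while the coat protein gene Sec24d rose from 23.2 to 33.0 CPM (0.51 ± 0.13, adjusted p = 0.00183). Both other crosslinking enzymes rose: Pxdn, a peroxidase that makes sulfilimine bonds in type IV collagen, from 24.1 to 73.6 CPM (1.61 ± 0.10, adjusted p = 4.02e-11), and the transglutaminase Tgm2 from 352 to 563 CPM (0.68 ± 0.09, adjusted p = 1.39e-06).

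With Anti-miR-21, 20 of the 31 partner genes fell, 5 rose and 6 were not called (median log2 fold change -0.67), and with ACEi 15 fell, 5 rose and 11 were not called (median -0.41). Of all genes 30.5% were called lower and 28.8% higher with Anti-miR-21, and 19.1% and 21.0% with ACEi. All 6 substrates fell with each drug, with medians of -1.97 and -1.07. P4hb rose with Anti-miR-21 (0.50 ± 0.07, adjusted p = 1.08e-05) and with ACEi (0.47 ± 0.09, adjusted p = 0.000429), and so did Mia2 (0.85 ± 0.09, adjusted p = 1.82e-07, and 0.74 ± 0.11, adjusted p = 3.12e-05). Between the 2 treated groups, 2 of the 31 genes were called, both lower in Anti-miR-21. Eln had a mean of 23.2 CPM in Anti-miR-21 and 56.0 in ACEi (-1.27 ± 0.14, adjusted p = 7.67e-05), and Pxdn 37.5 and 55.2 CPM (-0.56 ± 0.11, adjusted p = 0.0263). Against WT, 17 of the 31 were higher and 4 lower in each treated group, against the 23.9% higher and 19.8% lower of all genes in Anti-miR-21 and the 25.2% and 22.5% in ACEi.

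**Figure D5:**
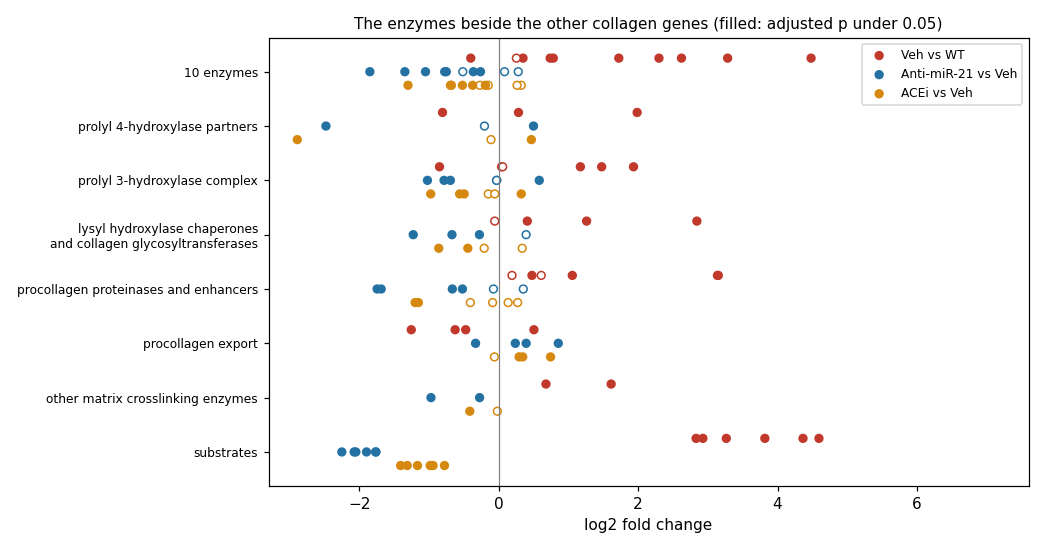
Log2 fold change (x axis) of the 10 enzymes and of 31 partner genes, 1 point per gene, by list (rows) and comparison (colours), filled where the adjusted p was under 0.05. All 6 substrates lie between 2.83 and 4.59 in Veh vs WT, and 3 of 4 procollagen export genes lie below 0.

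Likeness of profile was described by Pearson's r of log2 CPM over the 20 mice, among 13197 genes with a mean log2 CPM of at least 1. The gene most like Lox was Casp12 (r = 0.991), that most like Loxl1 Emilin1 (0.992), that most like Loxl2 Fbn1 (0.996), and that most like Loxl3 Serping1 (0.993). Because the groups differ in most genes, such values are high in general. After group means were subtracted, Fbn1 was still first for Loxl2 (r = 0.97), Serping1 for Loxl3 (0.952), Abi1 for Plod1 (0.85) and Stip1 for P4ha1 (0.906, followed by Hsph1 at 0.905). On the same group-centred values Loxl1, Loxl2 and Loxl3 had r of 0.811 to 0.851 with each other. Lox had only 0.102 to 0.337 with these genes, and Loxl4 0.0245 to 0.415. Loxl2 had 0.923 with Col1a2, and Serpinh1 had 0.768 with P4ha1, against -0.159 between Loxl2 and P4ha1. These points share libraries and their scaling, and the values are given as description only.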

How the data were processed

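Kidney RNA-seq of 20 mice was analysed, with groups taken from the labels. With the OmicSoft aligner the authors mapped paired 100 bp reads to the GRCm38 genome, and they deposited an estimated count (expected count) per Ensembl gene, not normalized, and FPKM per gene entry, normalized by them for length and depth. Of positive counts, 23.2% were not whole (tolerance 0.001), and counts were rounded. The FPKM columns of 3 libraries with no matching label were not used. No 2 of 43 replicate pairs agreed within sampling noise.

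Genes passing edgeR's filterByExpr (17622, minimum count 10, minimum total 15) were fitted with 1 coefficient per group over all 20 mice by the quasi-likelihood test of edgeR 4.0.16 (R 4.3.3, TMM scaling, Benjamini-Hochberg over all genes in each comparison, threshold 0.05), in 6 comparisons. The study's own test used log2(FPKM + 1), which, with limma 3.58.1 and pseudocounts of 1 and 0.1, was an alternative, as were DESeq2 1.42.0, other scalings and filters, flow cell, and each mouse left out. CPM are TMM-scaled, and log2 CPM used a prior count of 2. Errors are SD over mice for levels and SE for fold changes. Scripts that test many genes were tested on simulated data. Permutation tests and correlations used scipy 1.17.1 and numpy 2.4.6, and plots matplotlib 3.10.9, in Python 3.11.15.

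The 10 genes and the lists of partners and markers were chosen with earlier results of these data known. All 10 genes are named, and of each partner list the genes with the largest and the smallest log2 fold change between Veh and WT. Adamts3 and Tll2 did not pass the filter. Other lists read were markers of endothelium, podocyte, thick ascending limb, distal tubule, collecting duct, tubule injury, T cell, B and plasma cell, erythroid cell and adrenal gland. Promoters, miRNAs and 3′ untranslated regions came from RefSeq (GRCm38.p6) and GENCODE M21. Gene models of the count table were Ensembl R83.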

Additional observations from a re-analysis of the deposited data

Results flagged for a closer look

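Among 30 groups of mice tested (10 genes in WT, Veh and Anti-miR-21), 1 held a mouse that stood apart by Dixon's test at the 95% level, where chance flags about 5% of groups. Lox in Veh mouse A9 was measured at 97.8 CPM, with the nearest other Veh mouse at 71.1 CPM (gap over range 0.734, critical value 0.625). The ACEi group was not tested in this way.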

How the results depend on the processing

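The number of the 10 genes called between Veh and WT was 9, with 7 to 10 under the other settings and 8 to 10 with 1 mouse left out. Between Anti-miR-21 and Veh it was 7, with 7 to 8 under both, and between the treated groups 0 throughout. Against WT it was 7 for Anti-miR-21 (7 to 9, and 6 to 7 with 1 mouse left out) and 7 for ACEi (7 to 9, and 7 to 8). Between ACEi and Veh it was 6, with 1 to 8 under the other settings and 3 to 6 with 1 mouse left out. The 8 came from log2(FPKM + 1) in limma and the 1 from flow cell B alone, a setting chosen after seeing the data that leaves 2 mice a group. Lox, Loxl1, Loxl2, Loxl3 and Serpinh1 kept their direction in the 6 comparisons under the settings run. With library totals alone, P4ha1 turned to 0.18 (log2, Veh vs WT), -0.057 (Anti-miR-21 vs Veh), -0.011 (ACEi vs Veh), -0.047 (Anti-miR-21 vs ACEi), 0.13 (Anti-miR-21 vs WT) and 0.17 (ACEi vs WT), Plod2 to -0.25 (Anti-miR-21 vs Veh) and Plod3 to -0.050 (Anti-miR-21 vs ACEi). With FPKM under limma, at a pseudocount of 1 with or without the filter and at 0.1, P4ha1 was 0.096 and 0.10 (Veh vs WT), -0.025 and -0.026 (Anti-miR-21 vs Veh), -0.046 and -0.050 (Anti-miR-21 vs ACEi), 0.071 and 0.075 (Anti-miR-21 vs WT) and 0.12 and 0.12 (ACEi vs WT), Plod2 -0.24 and -0.26 (Anti-miR-21 vs Veh), and Plod3 -0.054 and -0.057 (Anti-miR-21 vs ACEi). With at least 10 counts in every sample Plod3 was -0.0017 (Anti-miR-21 vs ACEi), and with 1 mouse left out its difference ran from -0.032 to 0.056 and that of P4ha1 from -0.053 to 0.10. The place of P4ha1 in ACEi turned to -7.31% with library totals and -22.3% with FPKM, and the cause was not tested. Mouse names are unique and pair no mice.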
